A study of Mus musculus with 7 samples.

Results

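The genes described here encode chromatin modifiers and remodelers, the enzymes and subunits that add, remove or read marks on histones and DNA or that move nucleosomes. Members were the genes of the deposited exon expression table whose mouse symbol starts with Kdm, Kmt, Setd, Smarc, Hdac, Sirt, Chd and a digit, Dnmt, Tet and a digit, Brd, Kat, Prmt, Arid or Ezh, or is Ep300, Crebbp, Suz12 or Eed. There were 83 members among 5192 genes with values, and 548 of their coding exons were listed. A further 49 protein-coding genes matched these symbols in the RefSeq table but had no listed exon, among them Dnmt3a, Kmt2a and Sirt1, and were not analysed here. The letters Kat also took in Katna1, a subunit of katanin, which cuts microtubules and is no chromatin protein.

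RNA sequencing and chromatin immunoprecipitation sequencing (ChIP-seq) of EKLF, the erythroid transcription factor encoded by Klf1, were compared between erythroblasts and progenitors sorted from mouse fetal liver at E13.5. Erythroblasts were sorted as Ter119+CD71+ cells, Ter119 being a surface antigen that red cell precursors gain as they mature and CD71 the receptor for transferrin. The progenitor gate joined Ter119-CD71- and Ter119-CD71+ cells. Each population came from at least 3 sorts, per the labels. All cells, in both groups, came from mice whose Klf1 carries a hemagglutinin tag, the peptide against which the ChIP antibody was raised, and no untagged mice were among the samples. The 7 samples were 3 RNA libraries, of which 2 came from erythroblasts, 2 ChIP libraries and 2 input libraries. The deposited values gave 1 expression column and 1 pooled peak list for each stage. No difference below therefore has a replicate check, and none has a test.

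Histone lysine methyltransferases (Kmt, Setd and Ezh genes) and arginine methyltransferases (Prmt) write methyl marks, and Kdm enzymes erase them. Acetyltransferases (Kat, Ep300, Crebbp) open chromatin at enhancers and promoters, deacetylases (Hdac, Sirt) reverse their marks, and bromodomain proteins (Brd) bind acetylated lysines. SWI/SNF subunits (Smarc, Arid) and Chd proteins use ATP to move nucleosomes. In the erythroid lineage EKLF and GATA1 act through such partners, and the nucleus is condensed and later expelled as the cells mature.

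The expression value of a gene is the sum of the authors' coverage signal over the listed exons of 1 transcript. Exon length had not been divided out, so a signal is compared between stages for the same gene and not between genes. Differences are log2((erythroblasts + 1) / (progenitors + 1)). The words rose and fell are kept for genes at least 2-fold higher or lower in erythroblasts than in progenitors. An exon was listed only at 0.8 or more in both stages, so a gene silent in either stage is not among these values. In bulk samples a smaller number of cells of a type and less RNA per cell cannot be told apart. Tfrc, which encodes CD71, had a signal of 148 in erythroblasts and 21.3 in progenitors. Klf1 had a signal of 145 in erythroblasts and 73.9 in progenitors. Of the marker lists of hepatocytes, macrophages, granulocytes and mast cells, lymphoid cells and endothelial and stromal cells no gene was listed, and of 5 megakaryocyte markers 1 was listed. This was Gp1ba, with a signal of 31.6 in erythroblasts and 9.35 in progenitors, past the 2-fold rule. The part of other cell types in the results was not tested.

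Most chromatin genes kept their signal within 2-fold between the stages. Of 83 members 9 rose (10.8%), 10 fell (12.0%) and 64 did neither. Over all 5192 genes 15.3% rose, 13.2% fell and 28.5% did either, so neither share among the members stood above the background. At 1.5-fold 18 members were higher and 23 lower, where the shares of all genes were 27.1 and 24.3%. With the median of the exon log2 ratios in place of summed exons 13 members were at least 2-fold higher and 8 lower, where the shares of all genes were 19.2 and 14.6%. The median log2 difference was -0.17 over the members and 0.03 over all genes. With the median of the exon log2 ratios these were 0.04 and 0.09, so the sign of the members' median depends on how exons are joined. The genes that rose were Kmt5c, Sirt2, Kdm4b, Chd2, Smarce1, Kdm3a, Hdac5, Ezh2 and Kmt5b. Those that fell were Setdb1, Prmt5, Smarcd1, Kat14, Setd5, Prmt6, Prmt1, Setd1a, Brd2 and Kmt5a. Of these 19 genes 10 overlap another gene in the RefSeq annotation, namely Kdm4b, Sirt2, Chd2, Ezh2, Hdac5, Kmt5b, Setdb1, Kat14, Brd2 and Smarcd1. Whether counting used strand is not stated, so reads of such a pair may not have been told apart. Just inside the 2-fold line stood Kmt5b (1.13) and Kmt5a (-1.03), and just outside it Hdac2 (0.98) and Tet3 (-0.97).

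**Figure D1:**
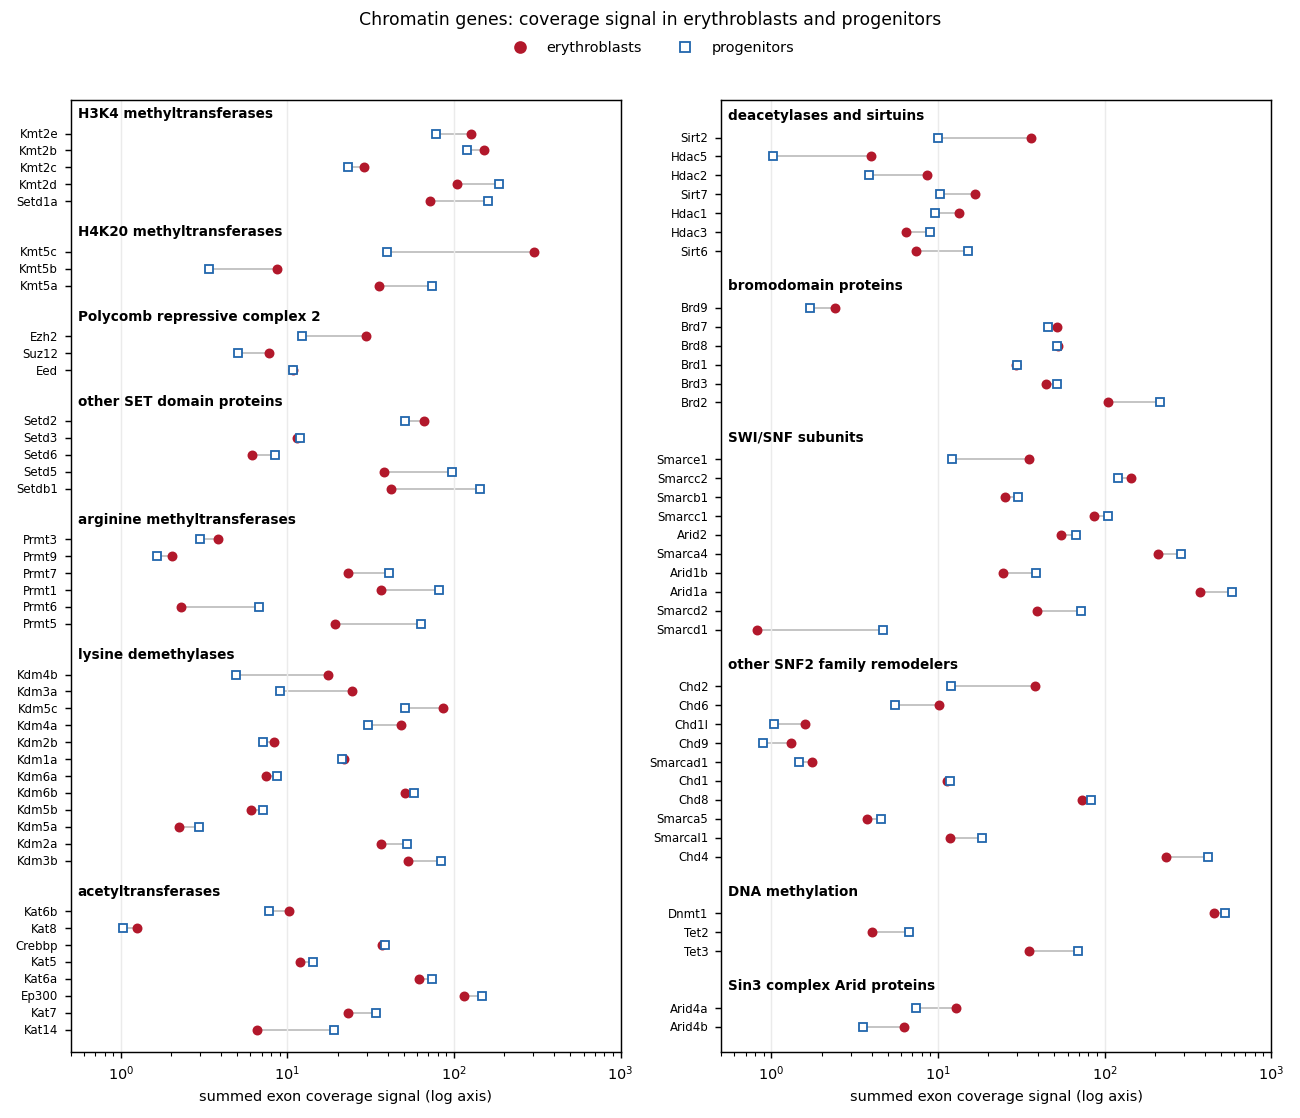
Summed exon coverage signal (log axis) of 80 members in erythroblasts (filled circles) and progenitors (open squares), grouped by role, with 1 value for each stage and no replicate. Kmt5c, at 301 in erythroblasts and 39.7 in progenitors, has the widest rise, and most other pairs lie close together.

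**Figure D2:**
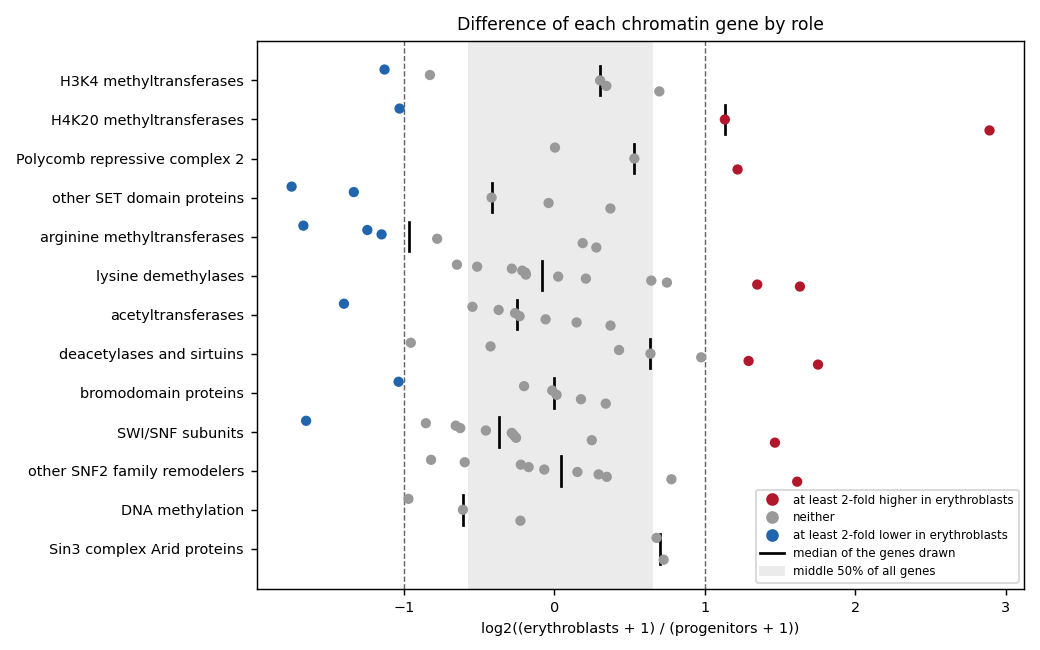
The log2 difference between erythroblasts and progenitors for the same 80 members by role, where each point is 1 gene and its height within a role carries no value. Black bars mark the median of the genes drawn in a role, dashed lines mark 2-fold, and the shaded band marks the middle 50% of all 5192 genes. All 6 arginine methyltransferases lie at or below 0.28. Of the 10 SWI/SNF subunits with Smarc or Arid symbols 8 lie below 0, as do 2535 of all 5192 genes.

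Kmt5c, the largest rise, and the 3 forward-strand members whose first coding exon was listed (Suz12, Smarcc1 and Kdm5c) serve as examples. They do not stand for the other members, as 42 of 83 members had no peak in either list. In the RefSeq table the 250 bases before the start of each example were searched for CCNCNCCC, the core of the sequence that EKLF is known to bind, on both strands. The windows are those of build GRCm38.p6, plus strand, chr7:4739877-4740126 for Kmt5c, chr11:79992856-79993105 for Suz12, chr9:110131774-110132023 for Smarcc1 and chrX:152232977-152233226 for Kdm5c. Capitals mark each match, and all matches here are on the minus strand, read as GGGNGNGG:
Kmt5c: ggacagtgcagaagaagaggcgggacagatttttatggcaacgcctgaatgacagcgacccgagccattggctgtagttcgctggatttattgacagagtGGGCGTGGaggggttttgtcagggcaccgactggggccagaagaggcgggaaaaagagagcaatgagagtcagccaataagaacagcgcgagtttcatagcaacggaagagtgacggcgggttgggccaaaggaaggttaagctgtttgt
Suz12: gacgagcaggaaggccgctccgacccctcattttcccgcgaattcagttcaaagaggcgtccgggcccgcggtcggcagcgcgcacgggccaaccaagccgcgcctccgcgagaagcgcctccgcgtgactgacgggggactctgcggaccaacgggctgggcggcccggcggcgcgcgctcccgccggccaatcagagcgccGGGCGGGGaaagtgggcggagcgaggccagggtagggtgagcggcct
Smarcc1: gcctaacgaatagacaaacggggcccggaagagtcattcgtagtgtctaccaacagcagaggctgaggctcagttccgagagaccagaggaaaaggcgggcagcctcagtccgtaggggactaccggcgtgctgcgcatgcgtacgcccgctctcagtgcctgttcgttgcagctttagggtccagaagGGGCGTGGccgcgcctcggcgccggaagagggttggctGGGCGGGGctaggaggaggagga
Kdm5c: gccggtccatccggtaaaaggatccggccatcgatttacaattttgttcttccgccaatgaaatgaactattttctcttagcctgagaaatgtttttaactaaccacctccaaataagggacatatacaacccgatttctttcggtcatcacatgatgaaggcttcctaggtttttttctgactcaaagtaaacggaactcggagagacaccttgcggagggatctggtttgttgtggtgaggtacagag
Kmt5c and Suz12 each had 1 match, Smarcc1 had 2, and Kdm5c had none. A match is a run of letters, not a bound site. The motif also takes in GC boxes such as GGGCGGGG, seen in Suz12 and Smarcc1, which Sp factors bind. Over the 64 members with a promoter in that table, 68.6% of 86 windows held at least 1 match. That share was 63.9% of 5408 windows of all genes in the expression table and 45.9% of all 32851 windows. The median GC content of the same windows was 62.8, 60.4 and 52.4% in the same order, and the share with a match was highest where GC content was highest.

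Of the deposited peaks at these 4 genes, on build mm9, Suz12 and Smarcc1 each had 1 over the first coding exon that both lists shared. Those at Kmt5c and Kdm5c were in the erythroblast list alone. Kmt5c had an erythroblast peak at chr7:4690976-4692338, with a fold enrichment of 11.6, whose centre lay 1.82 kb before its first listed exon. A second erythroblast peak, at chr7:4697486-4699168, covered the starts of the last 2 of its 6 listed exons with an enrichment of 6.43. Neither overlapped a progenitor peak. An enrichment is the authors' own value for a peak and cannot be set against one of the other list. Suz12 had a peak over its first coding exon in erythroblasts, at chr11:79805259-79807857 with an enrichment of 10.2, and in progenitors, at chr11:79805215-79807639 with 7.42. Smarcc1 likewise had overlapping peaks over its first coding exon, with enrichments of 13.2 in erythroblasts and 9.60 in progenitors. A second erythroblast peak of Smarcc1, at chr9:110143946-110144714 with an enrichment of 9.92, overlapped no progenitor peak. Its centre lay 109.7 kb downstream of the first coding exon's start. Kdm5c had such a peak in erythroblasts alone, at chrX:148667051-148668636, with an enrichment of 7.44. Of all 642 forward-strand genes with a listed first coding exon, 73.2% had an erythroblast peak within 1 kb of that exon's start. A progenitor peak lay there in 49.7%. The peaks and the printed windows come from different builds, so whether a peak covers a window was not tested.

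Methyltransferases of lysine 20 of histone H4 moved in opposite directions. Kmt5c trimethylates this lysine in heterochromatin. It had a signal of 301 in erythroblasts, against 39.7 in progenitors, a log2 difference of 2.89. Its 6 listed exons were all higher in erythroblasts, by 2.60 to 4.56 on the log2 scale. In exon order the signals were 37.2, 59.4, 28.2, 24.1, 34.9 and 117 in erythroblasts, against 3.43, 6.80, 4.49, 1.02, 5.75 and 18.2 in progenitors. Kmt5b, the related enzyme, had 8.63 in erythroblasts and 3.39 in progenitors, on 1 listed exon. Kmt5a places the first methyl group on the same lysine and is needed in dividing cells. It fell to a signal of 35.6 in erythroblasts, against 73.7 in progenitors, a log2 difference of -1.03, with all 4 exons lower. With a pseudocount of 5, Kmt5b (0.70) and Kmt5a (-0.95) no longer passed the 2-fold rule.

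The genes grouped here with the methyltransferases of lysine 4 of histone H3, which mark promoters and enhancers, held 1 fall among 5 members. Of all genes 13.2% fell. The grouping does not say that each of the 5 encodes an active enzyme, Kmt2e included. Setd1a, a catalytic subunit of the COMPASS complex, had a signal of 72.3 in erythroblasts and 159 in progenitors (log2 difference -1.13), and 11 of its 13 exons were lower. The median of its exon log2 ratios was -0.81, under the rule. Kmt2d had 105 in erythroblasts and 186 in progenitors, a difference of -0.83 with 11 of 12 exons lower. Kmt2b, its relative, went the other way within 2-fold, with 152 in erythroblasts and 119 in progenitors and all 8 exons higher. Kmt2c and Kmt2e differed by 0.30 and 0.70.

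Of the 3 members of Polycomb repressive complex 2, which methylates lysine 27 of histone H3 and silences developmental genes, 1 rose and none fell. Of all genes 15.3% rose and 13.2% fell. Ezh2, the catalytic subunit, had 29.8 in erythroblasts and 12.2 in progenitors, a log2 difference of 1.22. Of its 4 exons 3 were higher by 1.30 to 1.60 and the other stood at -0.40. Suz12, a scaffold subunit, had 7.72 in erythroblasts and 5.03 in progenitors on 2 exons. Eed, which binds the finished mark, had 10.8 in erythroblasts and 10.7 in progenitors on 2 exons.

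Among the other SET domain proteins 2 of 5 fell, where 13.2% of all genes did. Setdb1 methylates lysine 9 of histone H3 and silences retroelements. It had the largest fall of any member, with a signal of 41.9 in erythroblasts and 143 in progenitors, a log2 difference of -1.75. All 12 exons were lower, with log2 ratios of -3.07 to -0.66. Setd5 had 37.8 in erythroblasts and 96.8 in progenitors (-1.33), and all 10 exons were lower. Setd2, which trimethylates lysine 36 of histone H3, had 66.4 in erythroblasts and 51.1 in progenitors. Setd3 and Setd6 differed by -0.04 and -0.42.

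Arginine methyltransferases had the lowest median log2 difference of the 14 roles, -0.96. The roles were assigned after values were seen. Of the 6 genes 3 fell, where 13.2% of all genes did. Prmt5, which makes symmetric dimethylarginine, had a signal of 19.4 in erythroblasts and 63.8 in progenitors, a difference of -1.67 with 9 of 10 exons lower. Prmt1, which makes most asymmetric dimethylarginine, had 36.4 in erythroblasts and 81.8 in progenitors, a difference of -1.15 with all 8 exons lower. The median over the exons of Prmt1, -0.85, was under the rule. Prmt6 had 2.29 in erythroblasts and 6.79 in progenitors on 1 exon, and its difference of -1.24 shrank to -0.69 with a pseudocount of 5. Prmt7 had 23.3 in erythroblasts and 40.7 in progenitors (-0.78). Prmt3 and Prmt9, each at a signal under 5, were 0.28 and 0.19 higher.

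Of 12 lysine demethylases 2 rose, none fell and 10 did neither, against a background in which 15.3% of all genes rose and 13.2% fell. Both genes that rose remove methyl groups from lysine 9 of histone H3. Kdm4b had a signal of 17.4 in erythroblasts and 4.95 in progenitors, a log2 difference of 1.63, and its 3 exons were 1.53 to 2.21 higher. Kdm3a had 24.5 in erythroblasts and 8.99 in progenitors, a difference of 1.35, and its 4 exons were 1.05 to 1.57 higher. Their relatives differed, as Kdm3b had 53.1 in erythroblasts and 83.8 in progenitors (-0.65) and Kdm4a had 48.0 in erythroblasts and 30.3 in progenitors (0.64). Kdm5c, which erases methyl marks on lysine 4 of histone H3, had 86.2 in erythroblasts and 50.9 in progenitors, a difference of 0.75. Its 17 exons were mostly higher, 14 of them, and their median log2 ratio of 1.14 would pass the rule. Kdm1a, a cofactor of the erythroid repressor GFI1B, had 21.8 in erythroblasts and 21.4 in progenitors. Kdm2a, Kdm2b, Kdm5a, Kdm5b, Kdm6a and Kdm6b lay between -0.51 and 0.21.

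Of 8 acetyltransferase genes 1 fell, where 13.2% of all genes did. Kat14, a subunit of the ATAC complex, had a signal of 6.57 in erythroblasts and 18.95 in progenitors (-1.40), with all 3 exons lower. Ep300, a coactivator that acetylates histones and is known to acetylate EKLF, had 115 in erythroblasts and 148 in progenitors (-0.37). Its 12 exons split, 7 higher and 5 lower. Crebbp, its close relative, had 36.9 in erythroblasts and 38.5 in progenitors. Kat6a had 61.7 in erythroblasts and 74.1 in progenitors. Kat5, Kat6b, Kat7 and Kat8 lay between -0.54 and 0.37.

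Among 7 deacetylases 2 rose, where 15.3% of all genes did. A positive difference was found in 5 of the 7 and in 2657 of all 5192 genes. Sirt2, an NAD-dependent enzyme that also deacetylates tubulin, had a signal of 36.2 in erythroblasts and 10.04 in progenitors, a difference of 1.75, with its 4 exons 1.52 to 2.66 higher. Hdac5 had 3.95 in erythroblasts and 1.02 in progenitors on 1 exon, and its difference of 1.29 fell under the rule with a pseudocount of 5 (0.57). Hdac1 and Hdac2 are the catalytic subunits of the NuRD, Sin3 and CoREST corepressors. Hdac1 had 13.3 in erythroblasts and 9.61 in progenitors, on 2 exons that went opposite ways. Hdac2 had 8.54 in erythroblasts and 3.85 in progenitors, also on 2 exons, which passed 2-fold with a pseudocount of 0.1 (1.13). Hdac3, the enzyme of the NCoR complex, had 6.47 in erythroblasts and 9.02 in progenitors. Its 5'-most listed exon had a log2 ratio of -2.62 while the other 2 were 0.33 and 0.91 higher. Sirt6 and Sirt7 differed by -0.95 and 0.64.

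Among the bromodomain genes Brd2 fell and none rose, where 13.2% of all genes fell and 15.3% rose. Brd2 encodes a protein of the BET group, which couples acetylated histones to transcription. It had a signal of 104 in erythroblasts and 215 in progenitors (-1.04), with all 10 exons lower. The median of its exon log2 ratios, -0.93, was under the rule. Brd3 had 44.8 in erythroblasts and 51.6 in progenitors. Brd1, Brd7, Brd8 and Brd9 lay between -0.01 and 0.34.

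The 10 members grouped here as SWI/SNF subunits, all with Smarc or Arid symbols, were mostly lower in erythroblasts within 2-fold. Of these 8 were negative, with a median log2 difference of -0.37 over the 10, while 1 rose and 1 fell. Outside this group Brd7, also a SWI/SNF subunit, differed by 0.18. Of 8 listed BAF partners 6 were positive, with a median of 0.24. The roles were assigned after values were seen. Of all 5192 genes 2535 were negative, 15.3% rose and 13.2% fell, and the median was 0.03. Smarca4 encodes BRG1, the ATPase known to act with EKLF at the beta-globin gene. Its signal was 210 in erythroblasts and 288 in progenitors (-0.46), and 20 of 29 exons were lower. Arid1a, the DNA-binding subunit of the BAF form, had 372 in erythroblasts and 586 in progenitors (-0.66) with 13 of 18 exons lower. Smarcc2 had 144 in erythroblasts and 121 in progenitors, and Smarcc1, its paralog, had 86.5 in erythroblasts and 104 in progenitors. Summed exons gave -0.27 for Smarcc1, but 11 of its 17 exons were higher and their median log2 ratio was 0.31. The 2 calls rested on 1 exon each. Smarce1 had 35.2 in erythroblasts and 12.1 in progenitors (1.47), and RefSeq names a pseudogene after it, Smarce1-ps1, whose reads may not have been told apart. Smarcd1 had 0.82 in erythroblasts and 4.71 in progenitors (-1.65), close to the floor of the listing. That difference was -0.74 with a pseudocount of 5, under the rule, and -2.39 with a pseudocount of 0.1. Smarcb1, Smarcd2, Arid1b and Arid2 lay between -0.85 and -0.25.

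Of 10 other remodelers of the SNF2 family Chd2 rose and none fell, where 15.3% of all genes rose and 13.2% fell. Chd2 had a signal of 38.5 in erythroblasts and 11.9 in progenitors, a difference of 1.61, with its 5 exons 0.52 to 2.02 higher. Chd4, the ATPase of the NuRD complex, had 235 in erythroblasts and 416 in progenitors, a difference of -0.82, with 30 of 34 exons lower. Chd8 had 73.2 in erythroblasts and 82.5 in progenitors. Smarca5, the ATPase of ISWI complexes, had 3.74 in erythroblasts and 4.53 in progenitors on 2 exons. Chd6 differed by 0.78, and Chd1, Chd1l, Chd9, Smarcad1 and Smarcal1 lay between -0.60 and 0.35.

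None of the 3 DNA methylation genes passed the rule, where 28.5% of all genes did. Dnmt1, which copies methylation at replication, had a signal of 453 in erythroblasts and 530.0 in progenitors (-0.23). Its 33 exons ranged from -1.97 to 1.34, with 13 higher and 20 lower. Tet3, which oxidises methylcytosine, had 35.0 in erythroblasts and 69.5 in progenitors (-0.97), and Tet2 had 4.03 in erythroblasts and 6.67 in progenitors. The Sin3 complex genes Arid4a and Arid4b differed by 0.73 and 0.68. Katna1 had a signal of 2.50 in erythroblasts and 4.89 in progenitors.

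**Figure D3:**
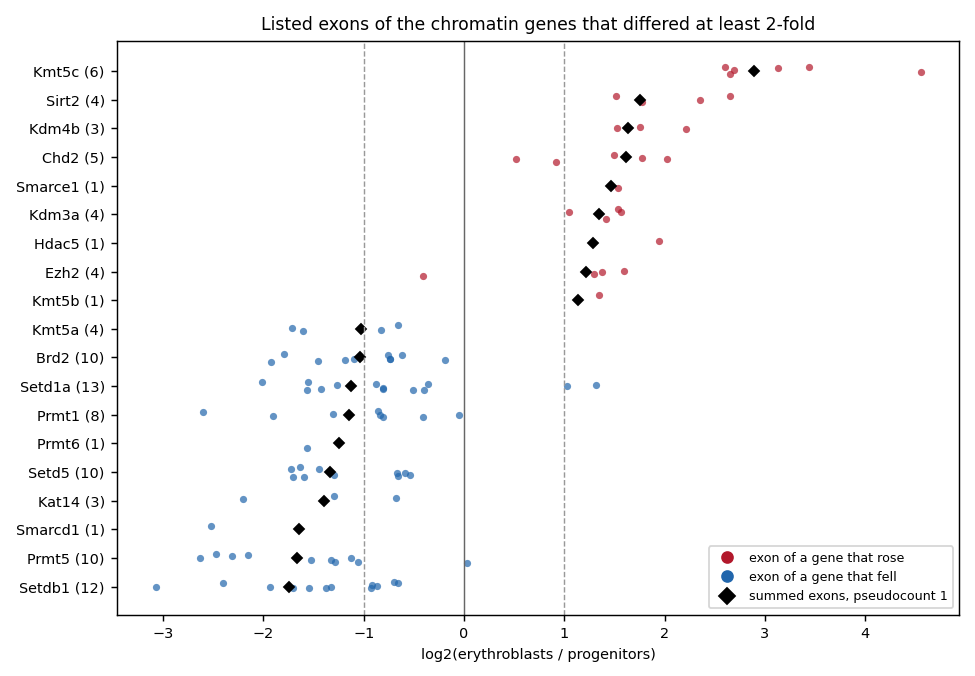
Log2 ratio of erythroblasts to progenitors, with no pseudocount, for each listed exon (dots) of the 19 members that differed at least 2-fold, with the number of listed exons in brackets and the gene's summed log2 difference, with a pseudocount of 1, as a diamond. All exons of Kmt5c, Sirt2, Kdm4b, Chd2 and Kdm3a lie above 0, and all exons of Setdb1, Setd5, Prmt1, Brd2, Kat14 and Kmt5a below 0.

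Exons of 1 gene often disagreed, which limits how closely a difference under 2-fold can be read. Of 55 members with at least 3 listed exons 8 had all exons higher, 8 had all exons lower and 39 had exons in both directions. In 8 members, none of them past the 2-fold rule, the summed difference and the median of the exon log2 ratios had opposite signs, Ep300, Kat6a and Smarcc1 among them. Neither set of counts was made over all genes. The 83 members had a median of 4 listed exons, against 3 in all genes. The median SD of exon log2 ratios was 0.73 in the 55 members and 0.65 in all 2745 genes with at least 3 listed exons. The 22 members with at least 10 listed exons held 5 falls and no rise, with a median difference of -0.65, while of all 547 such genes 11.9% rose and 11.2% fell, with a median of -0.16. In these 22 members the mean log2 ratio of the 5' exons minus that of the 3' exons, split at the middle exon, had a median of 0.15, from -0.73 in Setd1a to 1.02 in Ep300. The median was 0.09 in all 547 genes.

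EKLF peaks were found at chromatin genes at shares near or below those of the whole table, except progenitor peaks alone, whose count changed with the window. A gene was given a peak where one lay within 5 kb of the span of its listed exons. An erythroblast peak was found at 34 of 83 members (41.0%), against 46.5% of all genes, and a progenitor peak at 27 (32.5%), against 31.0%. Peaks of both lists were found at 20 members (24.1%, against 27.2% of all genes), erythroblast peaks alone at 14 (16.9%, against 19.4%), progenitor peaks alone at 7 (8.43%, against 3.79%) and neither at 42 (50.6%, against 49.7%). At all 20 members with both, an erythroblast peak overlapped a progenitor peak. Members had longer spans of listed exons, with a median of 11.04 kb, than all genes, with 4.39 kb. Exons that are not listed are missing from the spans, so peaks at some 5' ends were not counted, and a peak can also belong to a neighbouring gene.

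The highest enrichments of both lists at these genes lay before Kat6a, which encodes an acetyltransferase needed in blood stem cells. Kat6a had a shared peak, with an enrichment of 28.1 in erythroblasts at chr8:23969046-23971217, which 0.93% of that list reached, and of 16.5 in progenitors at chr8:23968819-23971113, which 1.98% reached. Brd7, a subunit of the PBAF form of SWI/SNF, had a shared peak over its 5'-most 2 listed exons, with 25.6 in erythroblasts at chr8:90885017-90887158 and 12.1 in progenitors. Kat7 had a shared peak 3.82 kb before its 5'-most listed exon in erythroblasts, with an enrichment of 20.7, and with 5.43 in progenitors. Eed had a shared peak over its 5'-most listed exon, with 19.8 in erythroblasts at chr7:97128178-97130399 and 8.35 in progenitors. Kmt2d had an erythroblast peak alone, with 19.8. The centre of this peak lay 31.2 kb downstream of the 5'-most listed exon, past the 3'-most one. These 5 genes did not pass the 2-fold rule in RNA.

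Further high enrichments of the progenitor list were at Setd1a, Smarcd1 and Chd8, all with shared peaks. Setd1a had 13.2 in erythroblasts and 13.74 in progenitors, Smarcd1 had 14.1 in erythroblasts and 13.73 in progenitors, and Chd8 had 13.6 in erythroblasts and 13.2 in progenitors. The medians over all peaks were 9.31 in the erythroblast list and 7.03 in the progenitor list, and those over the member peaks 11.3 and 7.07.

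**Figure D4:**
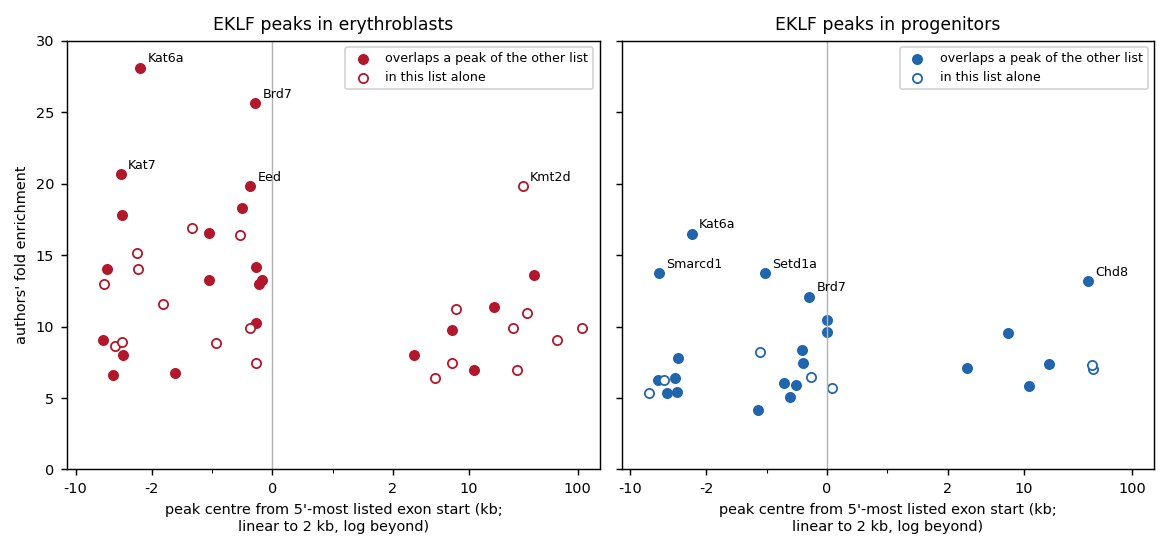
The authors' fold enrichment of each EKLF peak at a member against the distance of the peak's centre from the 5'-most listed exon start (kb, linear to 2 kb and on a log scale beyond, negative values upstream), for 42 peaks in erythroblasts (left) and 29 in progenitors (right). Filled points overlap a peak of the other list, and 22 peaks of each list do so. The 5 highest peaks of each panel are named, with Kat6a at the top of both.

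Peaks at members had their centre more often before than after the start of the 5'-most listed exon. Of 42 erythroblast peaks 28 had it upstream and 14 downstream, and the 12 peaks that covered this start were among the 28. Of 29 progenitor peaks 20 had it upstream and 9 downstream, and 11 covered this start. Positions about this exon were not counted for the peaks of all genes. Arid1a, Chd4, Setd1a, Smarcb1 and Smarca5 were among the members with a shared peak over that exon. At Chd4 the shared peak had an enrichment of 18.3 in erythroblasts and 5.07 in progenitors.

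Progenitor peaks alone were found at Kdm2a, Kdm3b, Kdm4a, Kdm6b, Prmt5, Setd6 and Dnmt1, of which 4 encode demethylases. Those at Setd6 and Dnmt1 covered the 5'-most listed exon, with enrichments of 6.49 and 5.69. The peak at Kdm6b, at chr11:69222365-69226047, had 5.34, and that at Prmt5 had 8.24, with its centre 1.11 kb upstream. The peaks at Kdm3b and Kdm4a lay 43.8 and 42.5 kb downstream of the 5'-most listed exon, past the start of the 3'-most one. The count of such genes depended on the settings. It was 3 with a window of 1 kb (3.61% of members, against 2.66% of all genes) and 2 with none (2.41 against 2.5%). It was 3 with 50 kb (3.61 against 2.54%) and 3 with the higher-ranked 50% of each list (3.61 against 4.35%). With equal numbers of highest-ranked peaks it was 13 (15.7 against 13.3%).

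Genes that rose and genes that fell were set beside their peaks. Of the 9 members that rose 2 had an erythroblast peak, Kmt5c in erythroblasts alone and Sirt2 in both lists. Of the 10 that fell 5 had one, Prmt1 in erythroblasts alone and Setd1a, Brd2, Kmt5a and Smarcd1 in both lists, and Prmt5 had a progenitor peak alone. Over all genes an erythroblast peak was found at 47.1% of those that rose and 43.1% of those that fell. At Brd2 the shared peak lay upstream of the 5'-most listed exon, at chr17:34254656-34260566 in erythroblasts, with an enrichment of 17.8, and with 7.83 in progenitors. Setdb1, Setd5, Kat14 and Prmt6 had no peak in either list, nor did Kdm4b, Chd2, Smarce1, Kdm3a, Hdac5, Ezh2 and Kmt5b.

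Partners of these enzymes, taken from lists of 10 complexes and classes, held more falls than rises. The lists were chosen with earlier results of these data known. Of 128 listed partner genes 27 fell (21.1%) and 8 rose (6.25%), against 13.2 and 15.3% of all genes, with a median log2 difference of -0.24. The lists differed among themselves, as none of 8 BAF partners passed the rule (median 0.24), 2 of 24 acetyltransferase complex partners rose and 1 fell, and 1 of 9 heterochromatin partners rose and none fell. None of 10 COMPASS, 11 Polycomb, 11 NuRD and CoREST, or 7 Sin3 and NCoR partners rose, where 15.3% of all genes did. In the same order 2, 3, 3 and 2 of them had a positive difference, at most 0.95, 0.83, 0.22 and 0.89. The lists named 166 genes, of which only the 128 with values were counted. Of 21 Polycomb partners named 11 had values. Wdr82 and Ash2l, subunits of COMPASS complexes, had signals of 2.75 and 35.3 in erythroblasts, against 16.01 and 84.5 in progenitors, on 2 and 7 exons. Men1 and Ncoa6 of the same list fell too, with log2 differences of -1.08 and -1.19. Mta1, a NuRD subunit, had 55.1 in erythroblasts and 212 in progenitors, a difference of -1.92 over 13 exons. Rbbp7, Rcor3 and Sin3a, of the corepressor lists, had differences of -1.05 on 4 exons, -1.51 on 1 and -1.25 on 7. The signal of Rcor3 was 3.29 in erythroblasts and 11.2 in progenitors. Among Polycomb partners Phc1, Rnf2, Jarid2 and Aebp2 fell, with log2 differences of -1.90 on 1 exon, -1.24 on 2, -1.19 on 5 and -1.06 on 1.

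Of the other listed writers of lysine 9 methylation on histone H3 2 fell, as Setdb1 did, and Suv39h1 differed by 0.03. Ehmt2, which encodes G9a, had a signal of 10.3 in erythroblasts and 75.3 in progenitors (-2.75 over 6 exons), and its partner Ehmt1 had 5.48 in erythroblasts and 17.8 in progenitors (-1.53). Cbx5, which encodes the reader HP1 alpha, had 22.9 in erythroblasts and 7.61 in progenitors (1.47 on 2 exons). The related Cbx1 and Cbx3 differed by 0.08 and -0.10. Carm1, an arginine methyltransferase outside the symbol rule, had 19.9 in erythroblasts and 60.7 in progenitors (-1.56 over 10 exons). Nsd1, which methylates lysine 36 of histone H3, had 14.99 in erythroblasts and 41.3 in progenitors (-1.40), while its relative Nsd3 had 23.8 in erythroblasts and 8.20 in progenitors (1.43). Jmjd1c had 3.53 in erythroblasts and 17.1 in progenitors, on 2 exons. Riox1, on 1 exon, had the largest fall of any partner, with 2.94 in erythroblasts and 52.2 in progenitors (-3.75).

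The largest rise of any partner was among the acetyltransferase list. Ncoa3, a nuclear receptor coactivator, had a signal of 17.6 in erythroblasts and 1.498 in progenitors, a log2 difference of 2.89 on 1 exon. Brpf3, a scaffold of histone acetyltransferase complexes, had 31.4 in erythroblasts and 4.13 in progenitors, a difference of 2.66 on 2 exons. Mrgbp fell in the same list (-1.37 on 1 exon). Of the INO80 and ISWI list 6 of 17 fell and 1 rose, against 13.2 and 15.3% of all genes. Ruvbl2 was among the falls, with 108 in erythroblasts and 262 in progenitors (-1.27 over 12 exons). Ino80e had 20.5 in erythroblasts and 99.6 in progenitors (-2.23 over 4 exons), and Ruvbl1, Ino80, Hells and Actr5 had differences of -1.87, -1.70, -1.29 and -1.12 on 1 exon each. The rise in that list was Rsf1, with 10.4 in erythroblasts and 3.61 in progenitors. Among 16 histone chaperones 3 rose, Nap1l1 (2.77), Anp32e (2.33) and Anp32b (1.44), and 2 fell, Hira (-1.73) and Daxx (-1.13).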

How the data were processed

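RNA and EKLF ChIP libraries of sorted fetal liver erythroblasts and progenitors were used, with build mm9 per the submitters' processing notes. Which aligner, counter and peak caller were used is not stated in the labels. The authors' deposited expression values are a coverage signal per coding exon. The file is named as RPKM, but 100% of values were whole multiples of 1 step for each column (within 0.01 of a step), with 2151 steps per unit in erythroblasts and 1835 in progenitors, so no length was divided out. The lowest listed exon held 1721 steps in erythroblasts and 1468 in progenitors. What a step is was not established, so depth in reads is unknown. It is not stated whether the erythroblast column joins both libraries, so no SD or n is given.

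The deposited peak lists, 1 pooled list per stage, hold 19353 erythroblast and 7358 progenitor peaks. The authors' fold enrichment (a ratio) was taken to be column 7, and the authors' -log10 p, used to rank peaks, column 8, both judged from their ranges. Input chromatin was the background control, per the labels.

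RefSeq accessions were matched to symbols through the GRCm38.p6 table (6770 of 6853 transcripts), the transcript with most listed exons was kept, and its exons were summed. Genes with at least 1 in either stage gave 5192 genes. Exon starts are the lower coordinate on mm9, and the 5'-most exon is taken along the strand. Promoter sequences are RefSeq's, build GRCm38.p6. With 1 column per stage a fixed 2-fold rule with a pseudocount of 1 replaced a test. The steps were tested on simulated data.

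Members, roles and lists were chosen with earlier results of these data known, and roles were assigned after values were seen. Named genes were all members past the rule, Ep300, Crebbp, Suz12 and Eed, and the member with the largest sum of each symbol family. The 5 largest enrichments of each list and members with a progenitor peak alone were named too. So were members next to the threshold and partner genes past the rule. Suv39h1, Cbx1 and Cbx3 were added after their values were seen. A few members are not reported here by name. Further members named were chosen after their values were seen. Alternatives were other pseudocounts, filters, scalings, exon summaries, thresholds, windows and peak ranks. Python 3.11.15, pandas 2.3.3, numpy 2.4.6 and matplotlib 3.10.9 were used.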

Additional observations from a re-analysis of the deposited data

How the results depend on the processing

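No paired analysis was possible because the expression table has 1 column per stage and the peak files 1 pooled list per stage, and for the same reason no library could be left out. No member past the 2-fold rule changed sign under any alternative tried. Of the 19 members past the rule 11 kept their call under every alternative that held them, and Brd2, Hdac5, Kmt5a, Kmt5b, Prmt1, Prmt6, Setd1a and Smarcd1 lost it under a pseudocount of 5 or the median of exon log2 ratios. Chd6, Hdac2, Kdm5c, Sirt6 and Tet3 were among those that passed the rule in some alternative alone. With a threshold of 1.5-fold 18 members were higher and 23 lower, against 27.1 and 24.3% of all genes. The median of exon log2 ratios gave 13 higher and 8 lower, so that 61.9% of the calls were higher, against 47.4% with summed exons.

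The peak counts moved most with the window and the depth of the list. Within 1 kb 7 members had erythroblast peaks alone and 3 progenitor peaks alone, where 13.8 and 2.66% of all genes did. With no window 10 had both, 6 erythroblast peaks alone, 2 progenitor peaks alone and 65 neither, where 13.35, 11.54, 2.5 and 72.6% of all genes did. Within 50 kb 59 had both, 3 progenitor peaks alone and 7 neither, where 67.6, 2.54 and 9.38% of all genes did. With the higher-ranked 50% of each list 13 had both and 3 progenitor peaks alone, where 14.2 and 4.35% of all genes did. With equal numbers of highest-ranked peaks 6 had erythroblast peaks alone and 13 progenitor peaks alone, where 6.80 and 13.3% of all genes did. Leaving out members matched by letters alone, or using all transcripts, changed no count of rises or falls. Among the 55 members with at least 3 listed exons, a choice made after seeing the data, 6 rose and 8 fell, where 14.8 and 12.3% of the 2745 such genes did.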
